A study of Mus musculus with 32 samples.

Results

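The genes described here are 34 mouse genes of cholesterol and fatty acid synthesis, among 53465 genes counted. They were chosen by name, as enzymes of both pathways and as regulators of their transcription. The rule uses no measured value, but earlier results of these data were known when they were chosen. By role, 7 act in the mevalonate and isoprenoid steps, 11 carry squalene to cholesterol, 6 are regulators or sterol carriers, 4 make fatty acids, and 6 desaturate or elongate them. Each library was made by SMART-Seq v4 RNA sequencing from 500 sorted B lineage cells of the spleen. The C57BL/6 mice were 12 weeks old and had received NP-CGG in alum intraperitoneally 14 days earlier. The populations were plasma cells (PC), light zone (LZ) and dark zone (DZ) germinal centre B cells, and naive B cells (N). Each was sorted from aPIK3CD mice, which have activated PIK3CD signalling, and from WT mice, with 4 libraries in each of the 8 groups. All groups, WT included, carry AID-cre, a Cre recombinase that acts mainly in germinal centre B cells. The design asks what activated PI3K-delta signalling changes in each population of the antibody response.

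Cholesterol is built from acetyl-CoA through mevalonate, farnesyl diphosphate and squalene, and fatty acids from malonyl-CoA by fatty acid synthase. Both pathways are switched on by the SREBP transcription factors. When the endoplasmic reticulum is poor in sterols, the escort protein SCAP carries SREBP to the Golgi to be cut and released. When it is rich in sterols, INSIG proteins hold SCAP back, while LXR receptors raise the genes that export cholesterol. Dividing germinal centre B cells make new membrane at each division, and plasma cells enlarge the endoplasmic reticulum in which antibody is folded.

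The upstream sequences of 4 members are shown because these genes carry the main contrast of the data. Hmgcs1, Cyp51 and Msmo1 were lower in plasma cells than in light zone cells, and Ebp was higher. Each is the 250 bases before the annotated start, 5′ to 3′ on the gene's strand, from RefSeq on GRCm38.p6. Capitals mark the CCAAT box, searched as CCAAT on both strands and so printed as CCAAT or ATTGG, and the SREBP element, searched as TCACNCCAC on both strands. Hmgcs1 lies at chr13:119690101-119690350 on the plus strand, Cyp51 at chr5:4104698-4104947 on the minus strand, Msmo1 at chr8:64733579-64733828 on the minus strand, and Ebp at chrX:8193513-8193762 on the minus strand.
Hmgcs1: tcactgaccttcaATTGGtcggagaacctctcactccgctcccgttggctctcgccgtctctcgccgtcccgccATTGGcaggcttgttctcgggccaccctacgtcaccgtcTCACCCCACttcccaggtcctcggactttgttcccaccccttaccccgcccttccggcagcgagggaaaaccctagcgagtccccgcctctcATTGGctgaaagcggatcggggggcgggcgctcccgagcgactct
Cyp51: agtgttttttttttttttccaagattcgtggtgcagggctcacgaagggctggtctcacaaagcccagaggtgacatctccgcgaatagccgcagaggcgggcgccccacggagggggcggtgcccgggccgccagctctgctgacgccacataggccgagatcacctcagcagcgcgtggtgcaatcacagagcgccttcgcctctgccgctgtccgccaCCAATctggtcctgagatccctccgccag
Msmo1: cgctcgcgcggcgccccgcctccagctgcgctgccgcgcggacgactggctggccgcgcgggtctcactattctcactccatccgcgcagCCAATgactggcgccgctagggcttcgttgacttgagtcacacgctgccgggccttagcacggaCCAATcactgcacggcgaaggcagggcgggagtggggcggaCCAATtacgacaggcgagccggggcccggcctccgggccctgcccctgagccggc
Ebp: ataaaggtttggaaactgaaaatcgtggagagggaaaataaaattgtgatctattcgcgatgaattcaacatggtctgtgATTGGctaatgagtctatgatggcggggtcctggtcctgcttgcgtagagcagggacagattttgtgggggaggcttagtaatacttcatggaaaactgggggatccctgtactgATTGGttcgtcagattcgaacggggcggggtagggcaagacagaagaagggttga

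An upstream sequence was available for 27 of the 34 members. Some genes had more than 1 annotated start, giving 35 sequences for these members. A gene was counted as matched if any of its sequences held the motif. A CCAAT box, the site of the factor NF-Y, stood in 21 of those 27 (77.8%), against 10133 of 27025 genes with such a sequence (37.5%). The SREBP element matched in 1 of 27 members (3.7%), Hmgcs1, against 331 of the 27025 genes (1.22%), and it shared no base with a CCAAT box. The E-box CACGTG was found in 6 of 27 members (22.2%), against 6.86% of genes. Of the members that were lower in plasma cells in both genotypes, 8 of 11 with a sequence held a CCAAT box, and of those that were higher, 4 of 4 did. These are letter matches in a short window and say nothing of binding.

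Total counts ranged from 473149 to 788999 in plasma cells, from 902088 to 1835558 in LZ cells, from 1154809 to 1941224 in DZ cells apart from WT replicate 3, and from 1965329 to 2820830 in naive cells. DZ WT replicate 3 held only 25797 counts and stands apart, so the plots leave it out of DZ WT means (n = 3). The marker means below include it. Counts of calls over all members that use it were also taken without it. Counts by role, by related list and of libraries that do not overlap include it. In the 4 libraries titled aPIK3CD replicate 1, the genotype field reads WT. They were grouped by title, and calls are also given without them. The labels do not say whether replicates came from separate mice, so p-values measure only the spread between these libraries. Defining markers of plasma and naive cells were highest in the libraries sorted as such. Sdc1 averaged 733 and 553 CPM (counts scaled to library size) in aPIK3CD and WT plasma cells and at most 24.4 CPM in any other group, and Ighd 1089 and 1096 CPM in aPIK3CD and WT naive cells. Light zone markers, summed, averaged 1916 and 1856 CPM in aPIK3CD and WT LZ cells and 1106 and 876 CPM in DZ cells. They averaged 1710 and 1700 CPM in naive and 1456 and 1536 CPM in plasma cells. Dark zone sums were 1067 and 940 CPM in DZ and 837 and 768 CPM in LZ cells. Germinal centre sums were 2145 and 2087 CPM in DZ, 1295 and 1294 CPM in LZ, and at most 123 CPM in other groups. Naive marker sums were 4484 and 4370 CPM in naive and 1337 and 1261 CPM in LZ cells. Summed markers of cycling cells averaged 286 and 319 CPM in aPIK3CD and WT plasma cells, 2310 and 2448 CPM in LZ cells, 2859 and 3044 CPM in DZ cells, and 199 and 211 CPM in naive cells. Summed T cell markers ranged from 176 to 271 CPM in aPIK3CD and from 158 to 509 CPM in WT plasma cells, and from 74.0 to 163 and 34.5 to 239 CPM in LZ cells. Summed markers of NK cells, 3 genes, averaged 70.5 and 33.1 CPM in aPIK3CD and WT plasma cells, 25.9 and 36.9 CPM in LZ cells, 15.7 and 2.17 CPM in DZ cells, and 182 and 190 CPM in naive cells. In naive libraries they ranged from 106 to 228 CPM in aPIK3CD and from 130 to 258 CPM in WT mice, and Ncr1, one of the 3, was at 0 in WT plasma and DZ cells. The part of T and NK cell markers in the results was not tested. Pik3cd, the gene of the activated kinase, averaged 73.7 and 115 CPM in aPIK3CD and WT plasma cells, 161 and 171 CPM in LZ cells, 205 and 181 CPM in DZ cells, and 140 and 220 CPM in naive cells, but counts per gene do not show whether the kinase is active. Levels are relative to all RNA of a library, so that fewer cells expressing a gene and less of its RNA per cell cannot be told apart.

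The plot of group means by role shows where each member stood. In aPIK3CD mice, 7 of the 34 members had their highest mean in plasma cells, 12 in LZ cells, 11 in DZ cells and 4 in naive cells. In WT mice without DZ replicate 3, as plotted, 8 had it in plasma cells, 15 in LZ cells, 8 in DZ cells and 3 in naive cells. With all 4 DZ libraries these counts were 9, 18, 4 and 3. The lowest mean fell in plasma cells for 18 members in aPIK3CD mice, and in WT mice for 18 without DZ replicate 3 and for 16 with it. Per kilobase of exon, Ebp led the members in plasma cells at 141 and 118 CPM per kb in aPIK3CD and WT mice. In LZ cells Pmvk led at 83.4 and 87.2 CPM per kb, and in naive cells Scd1 at 116 and 113 CPM per kb.

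**Figure D1:**
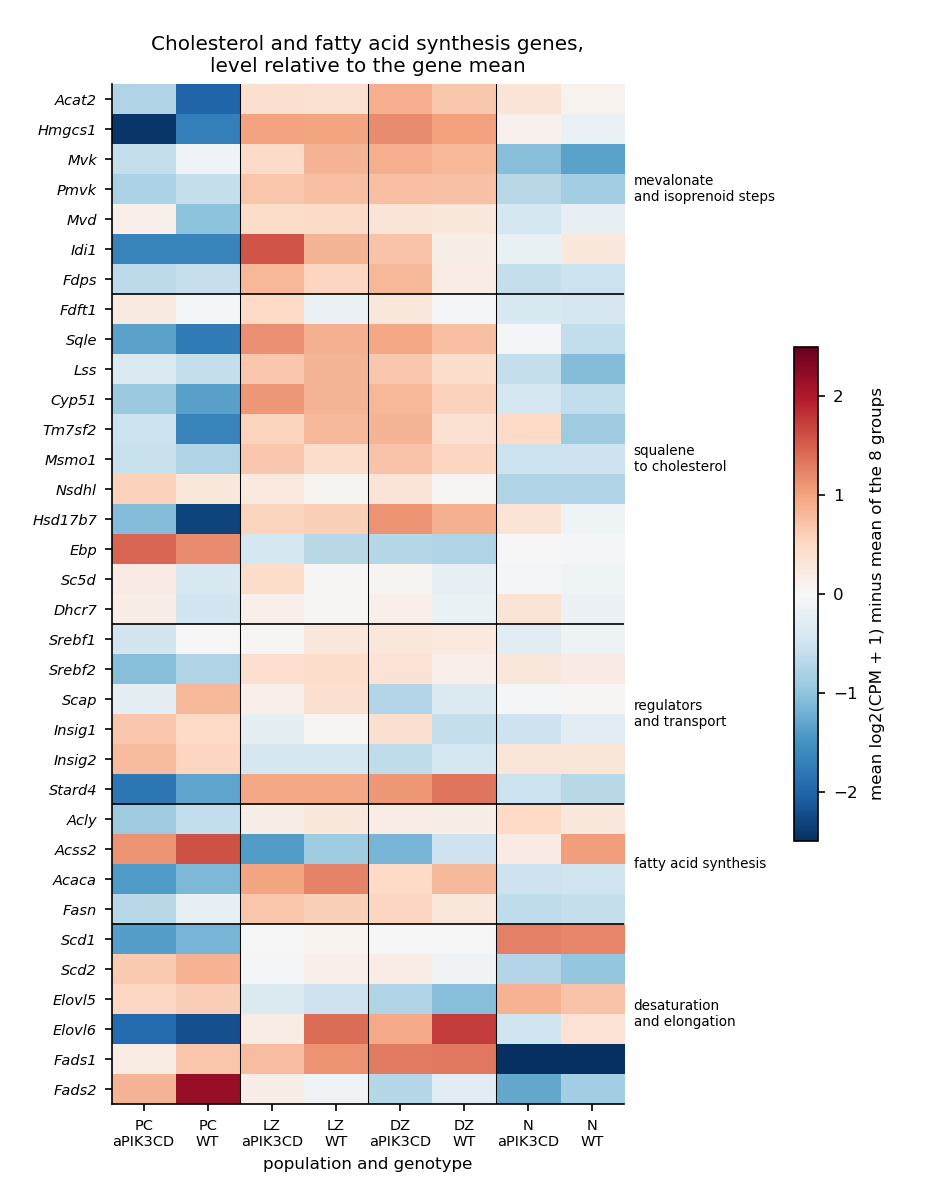
Mean log2(CPM + 1) of each of the 34 genes (rows, ordered by role) in the 8 groups (columns), minus the mean of the gene over the 8 groups. DZ WT replicate 3 is left out. Most mevalonate and squalene-to-cholesterol genes are red in LZ and DZ and blue in PC, while Ebp, Insig2, Acss2 and Scd2 are red in PC.

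Part of the sterol synthesis genes were higher in germinal centre B cells than in naive B cells in both genotypes. Of the mevalonate and isoprenoid genes, 3 of 7 tested rose in LZ against naive cells in aPIK3CD mice and 3 of 6 in WT mice, and of the squalene-to-cholesterol genes 6 of 11 rose in each. In DZ against naive cells 3 of 6 mevalonate and isoprenoid genes rose, and 5 of 11 squalene-to-cholesterol genes rose and 1 fell, in each genotype. In WT mice the 5 include Tm7sf2, whose call was lost without DZ replicate 3 and under 12 of 16 alternatives in all. Over all roles, in LZ against naive cells, 14 of 33 members tested rose and 3 fell in aPIK3CD mice, and 14 of 32 rose and 3 fell in WT mice. Of all genes tested, 42.6% changed in aPIK3CD mice, 21.8% upward and 20.8% downward, and 40% in WT mice, 19.8% upward and 20.2% downward. LZ and naive libraries did not overlap for 16 members in aPIK3CD mice, against 42.2% of all genes, and for 19 members in WT mice, against 40.3%. The median log2 fold change over the members was 0.78 in aPIK3CD mice, against -0.02 over all genes tested, and 0.81 in WT mice, against -0.04. In DZ against naive cells, 12 of 32 members rose and 4 fell in each genotype, where 43.6% of all genes changed in aPIK3CD mice, 22.2% upward and 21.4% downward, and 41.4% in WT mice, 19.8% upward and 21.6% downward. DZ and naive libraries did not overlap for 18 members in aPIK3CD mice, against 43.1% of all genes, and for 9 members in WT mice, against 37.9%, with DZ WT replicate 3 included. The members' medians were 0.87 and 0.84. Changes were called with edgeR's quasi-likelihood test at a Benjamini-Hochberg adjusted p below 0.05 over all genes tested. Without DZ WT replicate 3, 11 members rose and 4 fell in WT DZ cells. Without the aPIK3CD replicate 1 libraries, 12 rose and 3 fell in LZ cells and 13 rose and 3 fell in DZ cells. The higher levels went with the summed cycling markers given above, whose part in them was not tested.

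The members called higher in both zones of both genotypes were Hmgcs1, Pmvk, Sqle, Cyp51, Msmo1, Nsdhl, Stard4, Fasn, Scd2 and Fads1. The LZ and DZ comparisons of a genotype share their naive libraries. Hmgcs1 makes the HMG-CoA from which mevalonate is formed. It had 110.1, 158, 124 and 98.4 CPM in aPIK3CD LZ cells, against 66.7, 39.9, 77.9 and 83.6 CPM in aPIK3CD naive cells. In WT mice it had 121, 118, 107 and 136 CPM in LZ cells, against 71.3, 66.7, 37.3 and 46.3 CPM in naive cells. No LZ library came as low as a naive library of its genotype, and the log2 fold changes were 0.93 ± 0.23 (SE) and 1.17 ± 0.23, with adjusted p of 0.0065 and 0.0013 by edgeR's quasi-likelihood test. Nsdhl lost its call in LZ aPIK3CD cells without LZ replicate 1 or 3 or naive replicate 3, with adjusted p up to 0.065, and in DZ WT cells without any 1 of 6 libraries, up to 0.14, and also with DESeq2 size factors, DESeq2's Wald test or no filter on low counts, up to 0.18. Scd2 lost it in LZ aPIK3CD cells without LZ replicate 2 or naive replicate 1, with adjusted p up to 0.072, and Fasn in DZ WT cells without DZ replicate 2 or 4, up to 0.077, all by edgeR. The Fasn call in DZ WT cells was also lost with DESeq2's Wald test, and its adjusted p reached 0.088 over edgeR and DESeq2 alternatives.

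Cyp51, the lanosterol demethylase, had the smallest adjusted p of the members in LZ against naive cells in both genotypes. It had 306, 243, 276 and 244 CPM in aPIK3CD LZ cells, 285, 210.2, 195 and 211 CPM in aPIK3CD DZ cells, and 79.4, 82.6, 101 and 108 CPM in aPIK3CD naive cells. In WT mice it had 247, 229, 273 and 173 CPM in LZ cells, 221, 183 and 159 CPM in the deeper DZ libraries, 70.2 CPM in DZ replicate 3, and 93.5, 68.1, 79.4 and 86.8 CPM in naive cells. Apart from DZ WT replicate 3, each germinal centre library lay above each naive library, with log2 fold changes in LZ against naive cells of 1.58 ± 0.14 (SE) in aPIK3CD and 1.54 ± 0.18 in WT mice. Sqle, the squalene epoxidase, rose by 1.20 ± 0.25 and 1.59 ± 0.21 in the same comparisons. Pmvk, the phosphomevalonate kinase, rose by 1.47 ± 0.17 and 1.64 ± 0.25. Msmo1, which removes the methyl groups at carbon 4 of the sterol ring, rose by 1.17 ± 0.27 and 0.99 ± 0.23, and Nsdhl, which acts with it, by 0.96 ± 0.30 and 0.91 ± 0.24. Stard4, a carrier that moves cholesterol between membranes, rose by 1.52 ± 0.26 and 1.72 ± 0.26.

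Not every sterol enzyme was higher. Ebp, the sterol isomerase late in the pathway, fell in DZ against naive cells by 0.67 ± 0.17 (SE) on the log2 scale in aPIK3CD and by 0.62 ± 0.21 in WT mice. The aPIK3CD call was lost without the replicate 1 libraries, with an adjusted p of 0.056 by edgeR, and the WT call without DZ replicate 1 or 4 or naive replicate 1 or 3, with adjusted p up to 0.11. Fdft1, the squalene synthase, rose in both zones in aPIK3CD mice, by 0.96 ± 0.21 in LZ and 0.71 ± 0.20 in DZ cells. In WT mice its differences were 0.42 ± 0.28 and 0.46 ± 0.30, which did not pass the test. Whether these differ from the aPIK3CD values was not tested on its own. The interaction of genotype and population, taken over all 4 populations, did not pass for Fdft1, with an adjusted p of 0.96 by edgeR's quasi-likelihood test. The regulators Srebf1, Srebf2, Scap and Insig1 passed in neither zone of either genotype. Insig2 fell in DZ cells, by 0.89 ± 0.21 in aPIK3CD and 0.73 ± 0.26 in WT mice, the WT call being lost without any of the same 4 libraries, with adjusted p up to 0.10. In LZ cells Insig2 was called lower in aPIK3CD mice but not in WT mice. That call was lost under 4 of 16 alternatives, with adjusted p up to 0.080 by edgeR.

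Fatty acid genes moved in both directions. Fasn, the fatty acid synthase, had 86.9, 142, 98.3 and 115 CPM in aPIK3CD LZ cells, against 50.7, 37.5, 72.0 and 24.3 CPM in aPIK3CD naive cells. In WT mice Fasn had 99.6, 123, 80.4 and 109 CPM in LZ cells, against 31.3, 51.6, 57.4 and 39.6 CPM in naive cells. The groups did not overlap in either genotype, and Fasn rose by 1.32 ± 0.30 (SE) and 1.24 ± 0.24 on the log2 scale. Acaca, the acetyl-CoA carboxylase that makes malonyl-CoA, rose in LZ cells by 1.52 ± 0.48 and 1.72 ± 0.48, the aPIK3CD call being lost without naive replicate 1 or LZ replicate 2 or 3, with adjusted p up to 0.064. Fads1, the delta-5 desaturase, averaged 17.9 and 21.8 CPM in aPIK3CD and WT LZ cells, against 1.22 and 0.701 CPM in naive cells, where 4 of 8 libraries had no count. Acly, which makes cytosolic acetyl-CoA from citrate, passed in neither zone. Elovl5, an elongase of polyunsaturated fatty acids, fell in LZ cells by 1.17 ± 0.27 in aPIK3CD and 1.21 ± 0.20 in WT mice. Scd1, a stearoyl-CoA desaturase, also fell in LZ cells of both genotypes. It had 197 to 326 CPM in aPIK3CD and 206 to 298 CPM in WT LZ cells, against 536 to 590 and 510 to 587 CPM in naive cells. Elovl5 and Scd1 fell in DZ against naive cells in both genotypes as well. Acss2 was called lower in LZ cells in WT mice but not in aPIK3CD mice.

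Between light zone and dark zone cells, 0 of 32 members tested passed edgeR's quasi-likelihood test in either genotype, where 6.04% of all genes passed in aPIK3CD mice, 3.13% higher and 2.91% lower, and 2.55% in WT mice, 1.3% higher and 1.26% lower. The libraries of both zones did not overlap for 0 members in aPIK3CD mice, against 12.7% of all genes. In WT mice, with DZ replicate 3 included, they did not overlap for 1 member, Scap, against 9.4%. At an unadjusted p below 0.05 there were 2 members in aPIK3CD and 1 in WT mice, and DESeq2 called 0 in both. With limma voom and sample quality weights 1 member, Scap, was called in aPIK3CD mice, with an adjusted p of 0.048. The SE of the members had a median of 0.22 on the log2 scale in aPIK3CD and 0.26 in WT mice. Scap had the largest differences, 0.81 ± 0.33 (SE) in aPIK3CD with an adjusted p of 0.17 and 0.73 ± 0.28 in WT mice with an adjusted p of 0.19.

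About as many of the members fell in plasma cells, against light zone cells, as did not. Of 30 members tested in each genotype, 15 fell and 6 rose in aPIK3CD mice, and 16 fell and 5 rose in WT mice. Of all genes tested, 61.2% changed in aPIK3CD mice, 29.5% upward and 31.6% downward, and 56.4% in WT mice, 28.1% upward and 28.3% downward. Plasma and LZ cell libraries did not overlap for 19 members in aPIK3CD mice, against 56.4% of all genes, and for 20 members in WT mice, against 52.3%. The median over the members was -0.92 in aPIK3CD and -0.80 in WT mice, against -0.07 and -0.04 over all genes tested. In both genotypes the same 14 members fell and the same 5 rose, and the matching share of all genes was not counted. Without the aPIK3CD replicate 1 libraries, 13 fell and 6 rose in aPIK3CD mice, with Acat2 and Fdps lost. These comparisons share their LZ libraries with those against naive cells, so that both sets of values move with the same LZ libraries. Plasma cell libraries also differed in depth, as given above, and in the share of counts from immunoglobulin and T cell receptor genes, 7.47% to 11.0% in plasma cells against 0.877% to 1.06% in LZ cells. Without these genes 22 members were called in each genotype, and the share of all genes in those fits is not given here.

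The falls began at the first steps of the mevalonate pathway. Hmgcs1 had 33.8, 9.04, 7.15 and 4.84 CPM in aPIK3CD and 23.8, 9.63, 13.1 and 30.6 CPM in WT plasma cells, against the 98.4 to 158 and 107 to 136 CPM in LZ cells listed above. It fell by 3.01 ± 0.40 (SE) in aPIK3CD mice and fell by 2.52 ± 0.29 in WT mice on the log2 scale, with adjusted p of 1.8e-05 and 3.5e-06 by edgeR's quasi-likelihood test. Every plasma cell library also lay below every naive library of its genotype, and Hmgcs1 fell by 2.09 ± 0.49 and 1.36 ± 0.39 against naive cells. Idi1, the isopentenyl diphosphate isomerase, had 0 counts in all 8 plasma cell libraries. With its plasma cell level set to the floor of 3 counts per group, it was at least 7.1-fold lower in aPIK3CD and at least 4.17-fold lower in WT plasma cells than in LZ cells.

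Sqle had 20.6, 28.9, 28.6 and 19.4 CPM in aPIK3CD plasma cells, against 160.1, 140.3, 155 and 103 CPM in aPIK3CD LZ cells. In WT mice Sqle had 30.3, 9.63, 24.6 and 13.1 CPM in plasma cells, against 137, 117, 132 and 86.3 CPM in LZ cells. The highest plasma cell library lay far below the lowest LZ library in both genotypes, and Sqle fell by 2.43 ± 0.23 (SE) and 2.45 ± 0.29. Cyp51 had 39.7, 72.3, 89.4 and 71.0 CPM in aPIK3CD and 62.9, 48.1, 50.9 and 34.997 CPM in WT plasma cells. It fell by 1.89 ± 0.20 and 2.10 ± 0.20. Lss, the lanosterol synthase, fell by 0.99 ± 0.25 and 1.31 ± 0.33, the aPIK3CD call being lost in a single fit over all groups with an adjusted p of 0.061 by edgeR. Msmo1 fell by 1.12 ± 0.19 and 1.08 ± 0.21, and Hsd17b7, a sterol ketoreductase, by 1.54 ± 0.48 and 2.74 ± 0.59. Stard4 fell by 2.44 ± 0.34 and 1.62 ± 0.40.

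**Figure D2:**
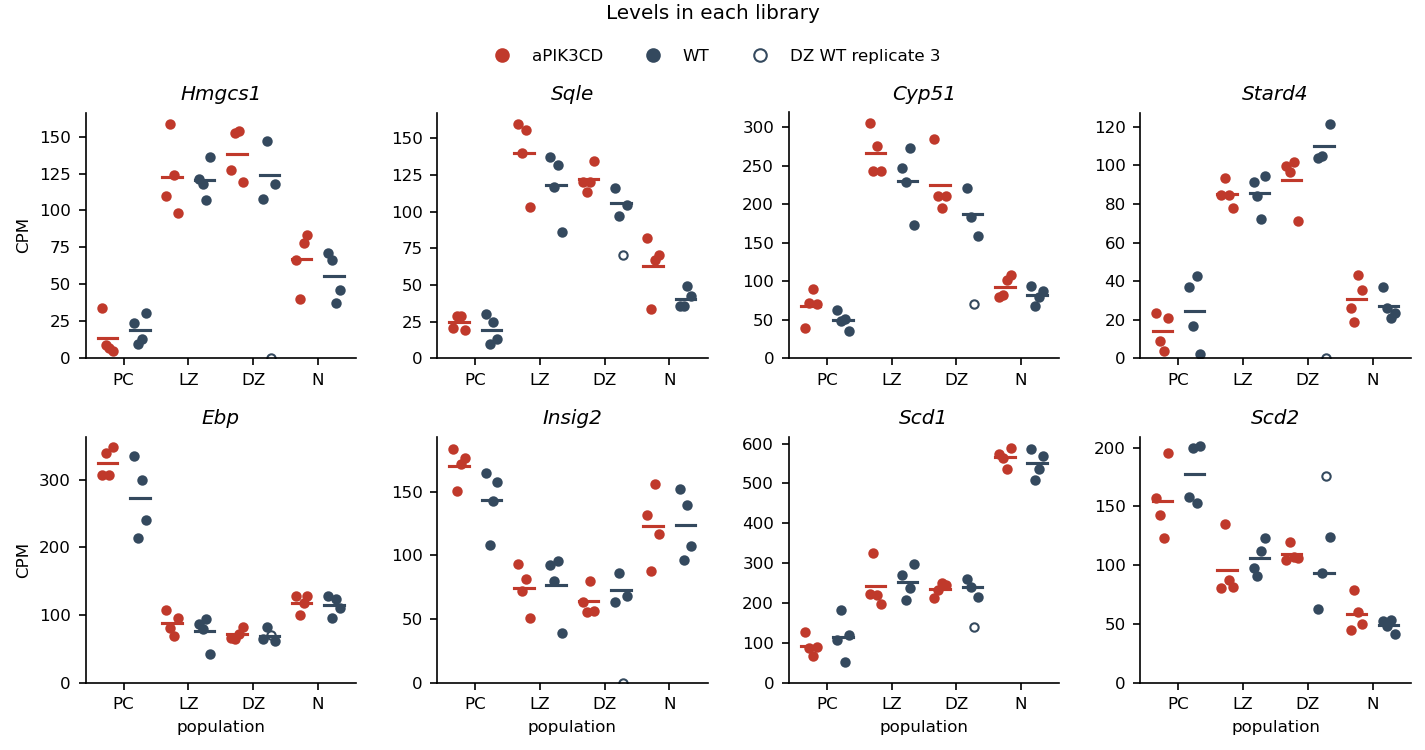
CPM of 8 genes in each library of the 4 populations, aPIK3CD in red and WT in blue. Each dot is a library, bars are means of 4 libraries (3 in DZ WT), and the open dot is the shallow DZ WT replicate 3. Hmgcs1, Sqle, Cyp51 and Stard4 are highest in LZ and DZ, Ebp and Insig2 in PC, and Scd1 and Scd2 run in opposite order between PC and N.

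Ebp went the other way. It had 307, 339.9, 308 and 349 CPM in aPIK3CD plasma cells, against 107, 80.2, 68.9 and 96.1 CPM in aPIK3CD LZ cells and 128, 99.5, 117 and 128 CPM in aPIK3CD naive cells. In WT mice Ebp had 336, 214, 300.4 and 241 CPM in plasma cells, against 87.0, 79.0, 94.5 and 42.6 CPM in LZ cells and 128, 96.1, 124 and 110.1 CPM in naive cells. All 8 plasma cell libraries lay above all libraries of every other population, with log2 fold changes against LZ cells of 1.98 ± 0.15 (SE) in aPIK3CD and 1.96 ± 0.22 in WT mice, and against naive cells of 1.62 ± 0.12 and 1.42 ± 0.18. The sterol enzymes between squalene and cholesterol therefore did not move as a block. Besides the 5 that fell in plasma against LZ cells, Fdft1, Nsdhl, Sc5d and Dhcr7 did not pass in either genotype. Nsdhl stood higher in plasma than in naive cells, by 1.43 ± 0.33 and 1.25 ± 0.25.

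Among the regulators, Srebf2, the SREBP that mainly drives sterol genes, had 55.9, 52.4, 41.1 and 72.6 CPM in aPIK3CD and 65.0, 93.9, 55.8 and 63.4 CPM in WT plasma cells. In LZ cells it had 159, 151, 155 and 149.9 CPM in aPIK3CD and 139, 171, 150.4 and 164 CPM in WT mice. The ranges did not overlap, and Srebf2 fell by 1.37 ± 0.18 (SE) and 1.05 ± 0.20 on the log2 scale. Srebf1, which mainly drives fatty acid genes, did not pass, with differences of -0.40 ± 0.29 and -0.13 ± 0.24. Insig2 rose in plasma cells, by 1.29 ± 0.18 and 1.02 ± 0.24 against LZ cells. Insig1, itself a target of SREBP in other cells, rose in aPIK3CD mice by 1.05 ± 0.29, and its 0.59 ± 0.31 in WT mice did not pass. Against naive cells Insig1 passed in both genotypes, by 1.30 ± 0.38 and 0.96 ± 0.37, but the aPIK3CD call was lost without the replicate 1 libraries, with an adjusted p of 0.061, and the WT call without plasma cell replicate 1, 2 or 4 or naive replicate 2, 3 or 4, with adjusted p up to 0.16.

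Of the fatty acid synthesis genes, Acaca fell in plasma against LZ cells by 2.42 ± 0.49 (SE) in aPIK3CD and 2.33 ± 0.46 in WT mice. Fasn fell by 1.15 ± 0.30 and 0.70 ± 0.21, and Acly by 0.97 ± 0.17 and 0.73 ± 0.20. Acss2, which makes acetyl-CoA from acetate, rose by 2.22 ± 0.63 and 2.58 ± 0.51. It had 32.3, 21.7, 32.2 and 35.5 CPM in aPIK3CD plasma cells, against 20.3, 1.40, 1.88 and 4.69 CPM in aPIK3CD LZ cells, so that the closest libraries differed little. In WT mice it had 34.7, 62.6, 24.6 and 56.9 CPM in plasma cells, against 5.04, 2.55, 15.1 and 9.14 CPM in LZ cells. Elovl5 rose by 0.92 ± 0.24 and 1.34 ± 0.24.

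**Figure D3:**
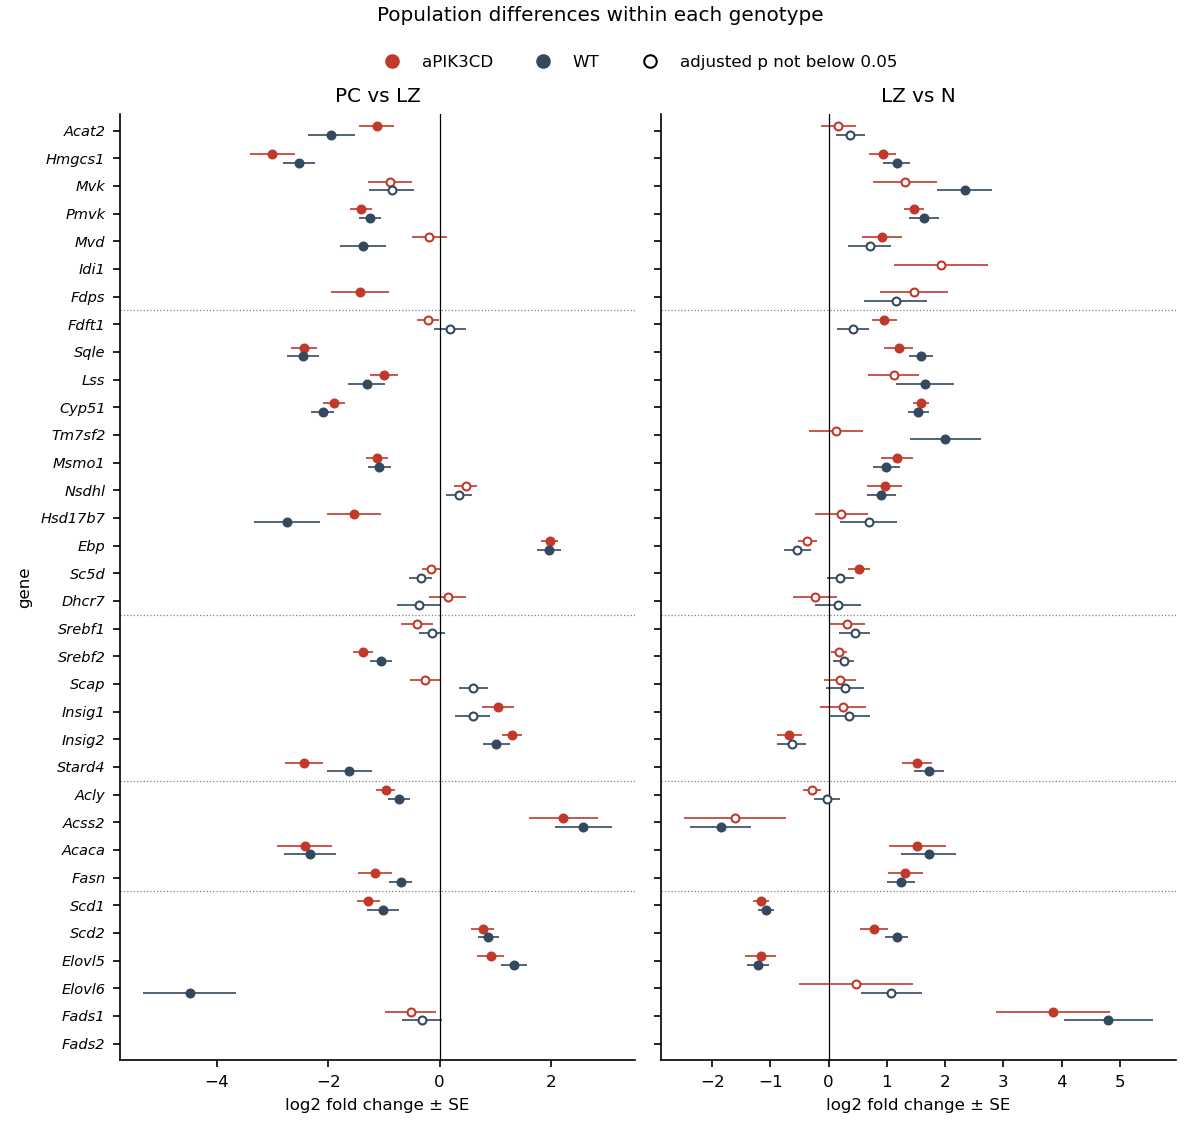
Log2 fold change with SE of each tested gene in PC against LZ cells (left) and LZ against N cells (right), aPIK3CD in red and WT in blue, with filled points at an adjusted p below 0.05 (edgeR). Genes with no point did not pass the filter on low counts. Hmgcs1, Sqle, Cyp51, Stard4, Acaca and Fasn lie left of 0 on the left and right of 0 on the right in both genotypes.

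The stearoyl-CoA desaturases Scd1 and Scd2, which make monounsaturated fatty acids, changed places between populations. Scd1 had 128, 86.8, 66.2 and 90.4 CPM in aPIK3CD and 106, 183, 50.9 and 120.3 CPM in WT plasma cells. In naive cells Scd1 had 573, 564, 536 and 590.0 CPM in aPIK3CD mice and 587, 509.7, 535 and 569.9 CPM in WT mice. Scd2 had 157, 143, 123 and 195 CPM in aPIK3CD and 158, 199.8, 153 and 201 CPM in WT plasma cells. In naive cells Scd2 had 44.7, 78.9, 60.0 and 50.1 CPM in aPIK3CD mice and 52.5, 48.2, 53.3 and 40.9 CPM in WT mice. Neither gene overlapped between these populations. In plasma against naive cells Scd1 fell by 2.45 ± 0.16 (SE) and 2.10 ± 0.27, and Scd2 rose by 1.55 ± 0.22 and 2.04 ± 0.20. Scd2 made up 62.7% ± 5.63 and 62.4% ± 9.48 of the summed Scd1 and Scd2 counts in aPIK3CD and WT plasma cells (SD, n = 4 each), 28.4% ± 1.28 and 29.6% ± 2.36 in LZ cells, and 9.36% ± 2.30 and 8.15% ± 1.03 in naive cells. The genes are close copies, and the sources used here do not say how reads shared between them were counted.

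Against naive cells the plasma cell picture was mixed. In aPIK3CD mice 6 of 29 members rose and 6 fell, and in WT mice 6 of 28 rose and 5 fell, where 52.8% of all genes changed in aPIK3CD mice, 26.5% upward and 26.2% downward, and 49.6% in WT mice, 25.4% upward and 24.2% downward. Plasma and naive libraries did not overlap for 10 members in aPIK3CD mice, against 50.9% of all genes, and for 12 in WT mice, against 48.8%. The members' share called was 41.4% and 39.3%. Nsdhl, Ebp, Insig1 and Scd2 rose and Acat2, Hmgcs1, Srebf2, Acly and Scd1 fell in both genotypes. Without the aPIK3CD replicate 1 libraries 6 rose and 4 fell, with the falls of Acat2 and Sqle and the rise of Insig1 lost. The WT fall of Acly was lost without plasma cell replicate 1 or 4 or naive replicate 2, with adjusted p up to 0.072 by edgeR. Fitted over all groups at once, WT plasma cells had 17 calls, 7 up and 10 down, and the share of all genes in that fit is not given here.

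No member passed the test between aPIK3CD and WT mice in any population. AID-cre acts mainly in germinal centre B cells, and whether naive cells of aPIK3CD mice carried the activated kinase was not tested. If they did not, the naive comparison is not a test of activated PIK3CD. By edgeR's quasi-likelihood test, 0 of 24 members passed in plasma cells, 0 of 32 in LZ cells, 0 of 32 in DZ cells and 0 of 31 in naive cells, where 3.2%, 0%, 0.021% and 0% of all genes passed. In plasma cells 1.98% of all genes were higher and 1.22% lower in aPIK3CD than in WT mice, and in DZ cells 0.0105% each. The libraries of both genotypes did not overlap for 1 member in plasma cells, 0 in LZ, 0 in DZ and 1 in naive cells, against 14.7%, 4.36%, 4.6% and 2.36% of all genes. At an unadjusted p below 0.05 there were 3 members in plasma, 2 in LZ, 1 in DZ and 2 in naive cells. DESeq2 called 1 member in plasma cells, Scap, and 0 in the other populations. With the aPIK3CD replicate 1 libraries counted as WT or left out, 0 members passed in each population. The interaction of genotype and population passed for 0 of 33 members (0.0256% of all genes), also without DZ WT replicate 3 or the aPIK3CD replicate 1 libraries. Insig1 had the smallest p of that test, 0.038, with an adjusted p of 0.66. The members' SEs had a median of 0.29 on the log2 scale in plasma, 0.23 in LZ, 0.26 in DZ and 0.31 in naive cells.

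In plasma cells Scap had 24.99, 27.1, 50.1 and 43.6 CPM in aPIK3CD mice, against 73.7, 113, 49.2 and 74.4 CPM in WT mice. Only WT replicate 3 lay within the aPIK3CD range. The log2 fold change was -1.11 ± 0.32 (SE) with an adjusted p of 0.073, and over its alternatives it ran from -1.30 to -0.38 with adjusted p from 0.013 to 0.72. Sc5d, the lathosterol desaturase, had 125, 141, 181 and 134 CPM in aPIK3CD plasma cells, against 104, 74.6, 110.0 and 91.9 CPM in WT plasma cells. These groups did not overlap, and the difference was 0.57 ± 0.17 with an adjusted p of 0.077. Mvd, which makes isopentenyl diphosphate, had 41.2, 57.9, 23.3 and 24.2 CPM in aPIK3CD and 13.0, 14.4, 8.21 and 30.6 CPM in WT plasma cells, a difference of 1.13 ± 0.46 with an adjusted p of 0.16.

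The largest fitted differences in naive, DZ and LZ cells were those of Tm7sf2, Insig1 and Elovl6, and none passed. Tm7sf2, a sterol reductase, had 14.5, 8.05, 17.9 and 8.72 CPM in aPIK3CD naive cells, against 3.86, 7.08, 1.86 and 3.75 CPM in WT naive cells, with no overlap but an adjusted p of 1. Insig1 differed by 1.01 ± 0.36 (SE) in DZ cells with an adjusted p of 0.49, and its libraries overlapped only through the shallow WT replicate 3 at 35.1 CPM. Elovl6, an elongase of saturated fatty acids, differed by -1.02 ± 0.54 in LZ cells with an adjusted p of 0.76. Fitted differences were also counted by role in plasma, LZ, DZ and naive cells, in that order. They were positive for 9 of 9, 8 of 11, 11 of 11 and 11 of 11 tested squalene-to-cholesterol genes. These had medians of 0.27, 0.20, 0.29 and 0.17, against -0.003, -0.004, 0.011 and -0.008 over all genes tested, and none of them passed. Of the mevalonate and isoprenoid genes, 2 of 3, 4 of 7, 6 of 6 and 5 of 6 were positive. Of the regulators and sterol carriers, 2, 0, 2 and 2 of 6 were. For fatty acid synthesis genes the counts were 0 of 3, 1 of 3, 2 of 4 and 2 of 4. For desaturation and elongation genes they were 0 of 3, 1 of 5, 2 of 5 and 3 of 4. Genes of 1 pathway in the same libraries are not independent of each other.

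**Figure D4:**
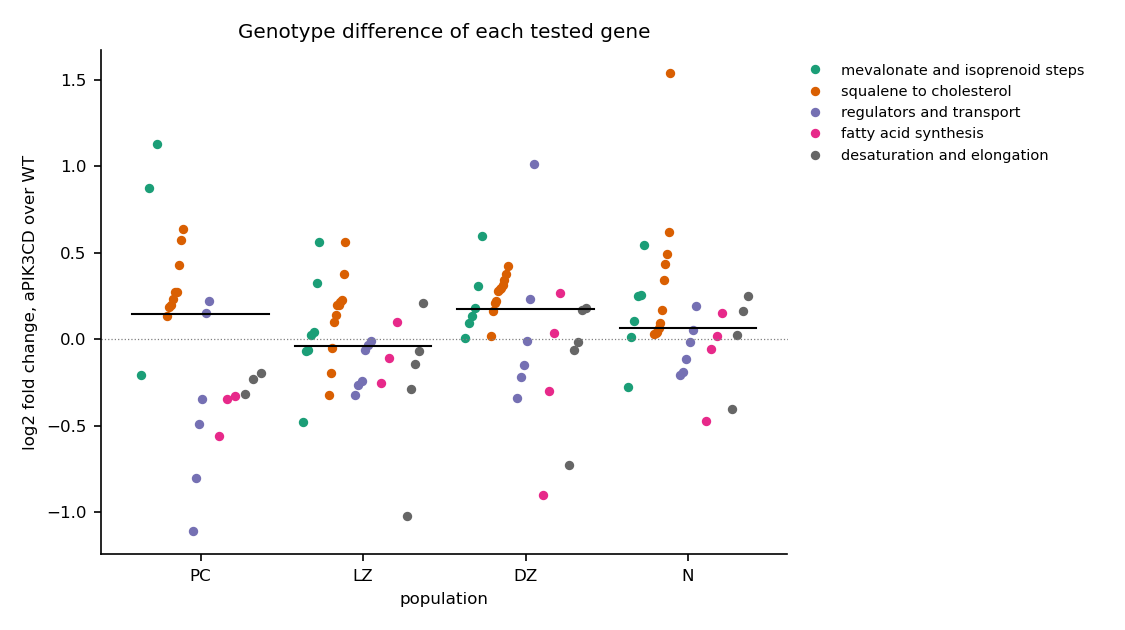
Log2 fold change of aPIK3CD over WT for each tested gene in each population, coloured by role, with the median of all tested members as a black line. No point passed the test. Squalene-to-cholesterol genes (orange) lie mostly above 0, and all 3 tested desaturation and elongation genes lie below 0 in PC.

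Further genes of sterol handling were taken from lists of pathway genes. One list held genes of sterol uptake, completion of synthesis and SREBP processing. In plasma against LZ cells, 8 of its 13 tested genes rose and 4 fell in aPIK3CD mice. In WT mice 4 of 13 rose and 4 fell, where 61.2% and 56.4% of all genes changed in aPIK3CD and WT mice. Log2 fold changes of the list ran from -4.10 to 2.74 and from -2.21 to 3.02. Npc2, which hands cholesterol out of lysosomes, was higher in plasma than in LZ cells, with 547 to 675 CPM in aPIK3CD and 598 to 628 CPM in WT plasma cells, against 94.9 to 103 and 66.8 to 93.4 CPM in LZ cells. It rose by 2.74 ± 0.12 and 3.02 ± 0.15.

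Among the efflux, esterification and LXR target genes, 3 of 8 rose and 1 fell in aPIK3CD plasma against LZ cells, and 2 rose and 3 fell in WT mice, where 61.2% and 56.4% of all genes changed in aPIK3CD and WT mice. Abca1, an exporter of cholesterol, had 94.1, 97.6, 68.0 and 72.6 CPM in aPIK3CD and 115, 139.6, 126 and 179 CPM in WT plasma cells. In LZ cells it had 15.2, 23.7, 15.03 and 23.4 CPM in aPIK3CD and 12.6, 17.2, 21.9 and 42.6 CPM in WT mice. The ranges were far apart, with rises of 2.18 ± 0.25 (SE) and 2.75 ± 0.32, and Abcg1, a second exporter, rose by 2.96 ± 0.45 and 2.96 ± 0.53. Against naive cells both exporters were lower in germinal centre cells, with log2 fold changes in LZ cells of -2.27 ± 0.28 and -2.20 ± 0.32 for Abca1 and of -3.05 ± 0.44 and -2.31 ± 0.57 for Abcg1. Between genotypes Abca1 differed by -0.78 on the log2 scale in plasma cells, aPIK3CD minus WT, with an adjusted p of 0.049 by edgeR's quasi-likelihood test. This call was lost without any 1 of the 8 plasma cell libraries and under 12 of 16 alternatives in all, where the difference ran from -0.88 to -0.63 with adjusted p from 0.016 to 0.39. It had an adjusted p of 0.073 without aPIK3CD replicate 1 and of 0.23 with that library counted as WT. Summed myeloid markers, mostly Lyz2, ranged from 8.94 to 470 CPM in aPIK3CD and from 7.22 to 351 CPM in WT plasma cells. In the libraries with the lowest sums, aPIK3CD replicate 3 and WT replicate 2, Abca1 stood at 68.0 and 139.6 CPM and Npc2 at 547 and 628 CPM. The aPIK3CD values are the lowest of their group, and the part of these markers in the results was not tested.

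**Figure D5:**
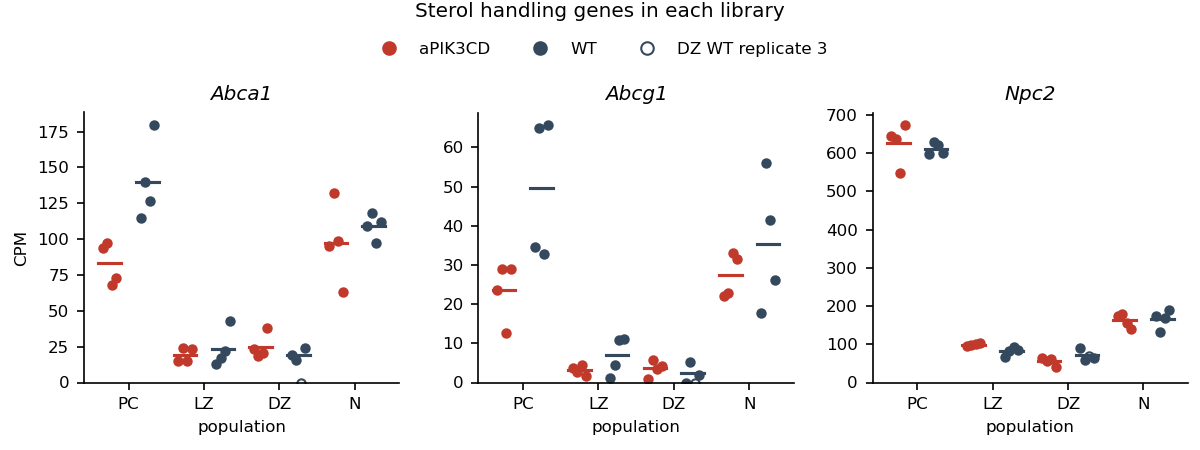
CPM of 3 further sterol genes in each library of the 4 populations, aPIK3CD in red and WT in blue, with bars for means and an open dot for DZ WT replicate 3. Abca1 and Abcg1 are lowest in LZ and DZ, and Npc2 is highest in PC.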

How the data were processed

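The authors deposited whole-number counts that were not normalised, for 53465 genes in 32 libraries. STAR 2.4.2a, HTSeq and Picard are named in the submitters' processing notes, and no source used here names the genome build. All columns were matched to samples by title, and genes without a name (3433) held 0.173% of counts. Each comparison was fitted on its 8 libraries with edgeR 4.0.16 in R 4.3.3, using TMM factors, filterByExpr (minimum count 10, total 15) and the quasi-likelihood F test, two-sided, with Benjamini-Hochberg adjustment over all genes tested and a threshold of 0.05. SE is the log2 fold change divided by the root of F. CPM were scaled by TMM over all libraries. The 3-count floors cover counting error only. DESeq2 1.42.0, limma 3.58.1, other filters, depth as a covariate, a replicate block and left-out libraries were alternatives, and the code was tested on simulated data. Exon lengths came from GENCODE M21, which matched 53274 genes. All members and the genes past the threshold could be named, with up to 4 genes per related list and comparison by smallest p, and regulators whatever their p. Npc2, Abca1 and Abcg1 were plotted after their values were seen. The members, lists and tests were chosen with earlier results of these data known. Replicate numbers are shared between groups. In 0 of 14 comparisons did all same-numbered pairs correlate above 0.1 in their deviations from the group means, and in 3 all lay above 0. The largest values were 0.244 and 0.225, for replicates 1 and 2 in LZ against DZ cells of aPIK3CD mice. These correlations cannot tell whether libraries of 1 number came from 1 mouse, since counting noise also lowers them. Some genes of the related lists are not reported here.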

Additional observations from a re-analysis of the deposited data

Results flagged for a closer look

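In 12 of 234 gene and group pairs with at least 40 counts, 1 library stood apart from the other 3 of its group by Dixon's test, which chance gives in about 1 in 20 groups. In WT plasma cells replicate 3 was high for Mvk at 31.2 CPM, the next library being at 17.5 CPM, and for Nsdhl at 143 CPM, the next at 84.5 CPM. In aPIK3CD LZ cells replicate 2 was high for Scd2 at 135 CPM, the next at 87.7 CPM. In WT LZ cells replicate 4 was low for Insig1 at 19.3 CPM, the next at 30.0 CPM. In aPIK3CD DZ cells replicate 1 was high for Mvk at 57.2 CPM, replicate 4 low for Stard4 at 71.3 CPM, and replicate 2 high for Scd2 at 120.0 CPM, the next at 107 CPM. In WT DZ cells replicate 2 was high for Pmvk at 160 CPM, and replicate 3, the library with 25797 counts, was at 0 for Stard4. In WT naive cells replicate 2 was low for Fdft1 at 43.8 CPM and high for Acly at 267 CPM, and replicate 1 was high for Sc5d at 171 CPM.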

How the results depend on the processing

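Of 131 calls of the 34 members, 107 were lost under no alternative, 24 were lost under at least 1, and 0 changed sign. Between genotypes in plasma cells, 1 member was called in place of 0 with DESeq2's Wald test, without a filter on low counts, and without immunoglobulin and T cell receptor genes. It was Scap each time, with adjusted p of 0.021, 0.013 and 0.021. Leaving out 1 library gave 0 to 1 calls, the 1 without WT replicate 3 (Scap -1.30, adjusted p 0.048). Plasma against naive cells in WT mice had 17 calls in place of 11 in a single fit over all groups. LZ against DZ cells in aPIK3CD mice had 1 in place of 0, Scap, with limma voom and sample quality weights. Cyp51 between genotypes in DZ cells was -0.0144 with aPIK3CD replicate 1 counted as WT, and Acss2 there ranged from -1.29 to 0.00805 when 1 library was left out, above 0 without DZ WT replicate 2, and neither passed in any fit. With the replicate number as a block, calls were 21 and 21 in plasma against LZ cells (aPIK3CD, WT), 18 and 19 in LZ and 18 and 14 in DZ against naive cells, and 0 between genotypes in each population. With that block Nsdhl, Ebp and Insig2 had adjusted p of 0.078, 0.095 and 0.07 in DZ against naive WT cells. Shares of all genes called under these alternatives are not given, so the counts cannot be set against them. The causes were not tested. Depth limits plasma cells most, where 10 of 34 members had too few counts to be tested between genotypes.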

Other observations

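Genes of neighbouring pathways were read from lists in the same fits. Of 14 tested fatty acid oxidation genes, 7 rose and 1 fell in plasma against LZ cells in aPIK3CD mice, and 6 rose and 1 fell in WT mice, with list medians of 0.48 and 0.52 on the log2 scale. Of all genes tested, 61.2% and 56.4% changed in these comparisons, so the share of the list called lay near or below that of all genes. Ech1, an isomerase of this pathway, rose by 1.83 ± 0.14 (SE) and 1.56 ± 0.19, and Etfdh, which passes its electrons to ubiquinone, by 1.63 ± 0.24 and 1.503 ± 0.29. Hadha, the alpha subunit of the trifunctional protein, fell by 1.10 ± 0.19 and 0.90 ± 0.24. In DZ against naive cells, 2 of the 14 rose and 6 fell in aPIK3CD mice, and 1 rose and 5 fell in WT mice, where 43.6% and 41.4% of all genes changed. Cpt1a, which admits fatty acids to mitochondria, was lower in LZ than in DZ cells, by 1.39 ± 0.22 in aPIK3CD and 0.90 ± 0.24 in WT mice, the WT call being lost under 10 of 16 alternatives, with adjusted p up to 0.21 by edgeR or DESeq2.

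Among genes that carry mevalonate products to isoprenoids, 4 of 15 rose and 3 fell in plasma against LZ cells in aPIK3CD mice, and 5 of 14 rose and 3 fell in WT mice. Dhdds, a subunit of the enzyme that makes the dolichol chain, rose by 1.66 ± 0.19 (SE) and 1.47 ± 0.21, and Dolk, the dolichol kinase, by 1.68 ± 0.29 and 1.34 ± 0.44, the WT call being lost without plasma cell replicate 1 or 3, with adjusted p up to 0.073 by edgeR. Pdss1, which makes the side chain of ubiquinone, fell by 2.83 ± 0.46 and 2.34 ± 0.43. In these comparisons 61.2% of all genes changed in aPIK3CD and 56.4% in WT mice.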
